A study of Mus musculus with 8 samples.

Results

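The cytosolic ribosomal protein genes of the mouse were followed across 8 RNA-seq libraries of differentiating embryonic stem cells. They were taken from the gene table by symbol, as names made of Rpl or Rps and a number, together with Rplp0, Rplp1, Rplp2 and Rpsa, leaving out names with -ps and the kinase genes named Rps6k. This gave 84 genes of the 38610 symbols in the table, of which 51 encode proteins of the large subunit and 33 proteins of the small subunit. The 3 stalk genes Rplp0, Rplp1 and Rplp2 are counted with the large subunit. A few genes of the cytosolic ribosome do not match the name rule and are described apart at the end.

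As background, the small subunit reads the messenger RNA and the large subunit joins the amino acids, and most of their proteins are present once per ribosome. Ribosomal protein messenger RNAs are among the most abundant of growing cells and usually begin with a cytosine followed by a run of pyrimidines, the terminal oligopyrimidine (TOP) motif, through which the kinase mTOR and the RNA-binding protein Larp1 control their translation and stability. Pluripotent cells that leave self-renewal are known to change both the output and the use of their ribosomes.

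There were 3 libraries of Evx1as knockout (KO) cells, 3 labelled EVX1 KO and 2 of wild-type (WT) cells. All came from the CJ9 embryonic stem cell line (129S4/SvJae strain), grown in serum medium for 4 days after leukemia inhibitory factor, which holds the cells undifferentiated, had been taken away. The series title gives CRISPR as the way both knockouts were made. Evx1as is a long noncoding RNA transcribed beside Evx1, a gene for a homeobox factor of the primitive streak. The labels do not say whether the libraries of a knockout came from 1 clone or from separate cultures, so p-values measure only the spread between these libraries, which may be technical in part.

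Evx1as, listed as 5730457N03Rik, had 0.0549, 0.104 and 0.0485 FPKM in Evx1as KO, 5.01, 8.81 and 7.39 in the EVX1 KO-labelled libraries and 5.36 and 6.75 in WT. Evx1 had 2.45, 3.84 and 0.541 FPKM in Evx1as KO, 26.3, 20.8 and 31.7 in the EVX1 KO-labelled libraries and 22.0 and 31.2 in WT, so the transcript level does not check the EVX1 KO label. The deposited unit, FPKM, divides fragments by transcript length and by a library's mapped fragments, and the read depth behind it is unknown. The 7 markers of pluripotent and epiblast cells, all above 1 FPKM in every library, summed to 1137 to 1286 FPKM in Evx1as KO, 780.0 to 797 in the EVX1 KO-labelled libraries and 587 to 736 in WT. The 7 markers of primitive streak and mesoderm summed to 81.5 to 208 FPKM in Evx1as KO, 460.2 to 523 in the EVX1 KO-labelled libraries and 434 to 483 in WT, and 4 of the 7 stayed above 1 FPKM in every Evx1as KO library. The 8 fibroblast markers summed to 13.5 to 23.3 FPKM in Evx1as KO, 20.4 to 26.4 in the EVX1 KO-labelled libraries and 21.1 to 35.2 in WT, with Postn and Lum at or near 0. Of the 8, 3 reached 1 FPKM in every Evx1as KO library, 3 in every EVX1 KO-labelled library and 5 in both WT libraries. In bulk RNA, more cells of a type and more RNA per cell cannot be told apart.

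Ribosomal protein genes held a larger share of the expression signal in Evx1as KO libraries than in any other library. Their FPKM summed to 23.3, 21.1 and 22.9% of each Evx1as KO library, 18.9, 18.4 and 18.5% of each library labelled EVX1 KO and 17.7 and 17.7% of the WT libraries. The Evx1as KO libraries lay above all others, and those labelled EVX1 KO lay slightly above WT. The large subunit genes held 12.6 ± 0.696% in Evx1as KO, 10.3 ± 0.104% in the EVX1 KO-labelled libraries and 9.87 ± 0.0351% in WT (SD, n = 3, 3 and 2). For the small subunit genes the shares were 9.88 ± 0.460% in Evx1as KO, 8.36 ± 0.203% in the EVX1 KO-labelled libraries and 7.87 ± 0.0235% in WT (SD, n = 3, 3 and 2). All other genes together summed to between 443768 and 453221 FPKM in Evx1as KO, between 433252 and 435921 in the EVX1 KO-labelled libraries and between 442788 and 453916 in WT.

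**Figure D1:**
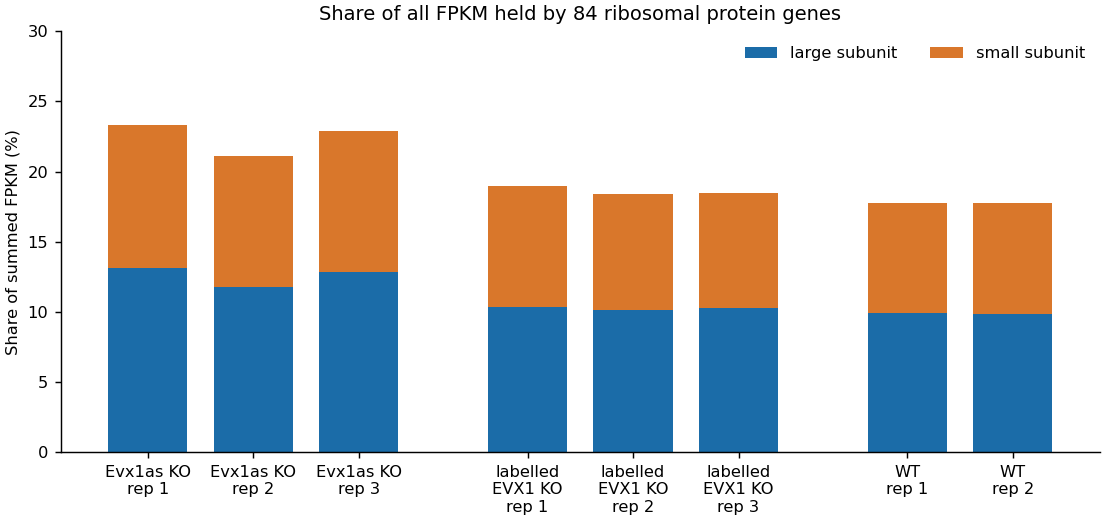
Share of the summed FPKM of each library, in percent, held by the 51 large subunit genes (blue) and the 33 small subunit genes (orange). The bars of the 3 Evx1as KO libraries reach 23.3, 21.1 and 22.9%, and the other bars end between 17.7% and 18.9%.

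Levels differed widely between the genes, although most of their proteins enter the ribosome in equal numbers. Of the 84 genes, 75 averaged 100 FPKM or more over the 8 libraries and 9 had less. The highest mean belonged to Rps2, a protein of the mRNA entry site, with 4619, 4096 and 4511 FPKM in Evx1as KO, 3734, 3473 and 3767 in the EVX1 KO-labelled libraries and 3834 and 3505 in WT. Rpl41, which encodes the shortest ribosomal protein, had 4814, 4334 and 4791 FPKM in Evx1as KO, 3110.4, 3296 and 3392 in the EVX1 KO-labelled libraries and 4274 and 3458 in WT. For Rpl41 all 3 EVX1 KO-labelled libraries lay below both WT libraries, while for Rps2 these groups overlapped. Rps12, Rps26 and the stalk gene Rplp1 followed, with means of 3418, 3327 and 2779 FPKM. The per-length scale allows these genes to be compared with each other, but reads shared with pseudogene copies can be placed on either locus, and 12 of the 84 genes also overlap another symbol in the table.

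Some genes share their position with another line that holds much of the signal. Rps27, a zinc-binding protein of the small subunit, was listed at 0.233, 0.232 and 0.207 FPKM in Evx1as KO, 0.205, 0.216 and 0.201 in the EVX1 KO-labelled libraries and 0.212 and 0.186 in WT. An unnamed line over the same position, whose identifier RefSeq gives to the retrogene Rps27rt, held 3022, 2744 and 3056 FPKM in Evx1as KO, 2109.8, 2236 and 1893 in the EVX1 KO-labelled libraries and 2203 and 1998 in WT. This line was higher in Evx1as KO than in WT, with a log2 fold change of 0.49 ± 0.10 (SE) and an adjusted p of 0.00921 (limma). Rpl34 was listed at 23.0, 16.2 and 13.3 FPKM in Evx1as KO, 13.9, 14.3 and 22.3 in the EVX1 KO-labelled libraries and 23.8 and 26.6 in WT, while Rpl34-ps1, listed over the same 3473 bases, held 1827, 1579 and 1779 FPKM in Evx1as KO, 1246, 1290.3 and 1269 in the EVX1 KO-labelled libraries and 1344 and 1327 in WT. Rpl34-ps1 was called higher in Evx1as KO than in WT (log2 fold change 0.37 ± 0.08, limma adjusted p = 0.0139), whereas Rpl34 was not, at −0.53 ± 0.24 (adjusted p = 0.141). Rpl38 was split in the same way between its own line and a transcript line that RefSeq assigns to Rpl38, which held 851, 656 and 714 FPKM in Evx1as KO, 542, 477 and 424 in the EVX1 KO-labelled libraries and 598 and 451 in WT. These 3 lines are outside the name rule and in no count of the family, though they were tested among all genes and count among other genes of high level, and they were singled out after their values were seen.

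The starts of 63 of the 84 genes could be looked up in RefSeq (build GRCm38.p6, not the build of the table), with 75 annotated starts. A C at the start base followed by 4 pyrimidines, the beginning of a TOP motif, stood at a start of 13 of these 63 genes (20.6%), against 813 of 27025 genes (3.01%) of the whole promoter table. This count depends on the exact base annotated as the start, so genes that miss it may still have a TOP motif. Rpl7a and Rpl27a miss it although their start base, a T, lies in a run of at least 17 pyrimidines. The windows below run from 10 bases before the start to 20 bases from it, 5′ to 3′ on the strand of the gene, and capitals mark the pyrimidine run that holds the start base, which is the letter after the first 10. They show genes with the motif that rose strongly in Evx1as KO (Rpl28, Rps18, Rps6, Rpl38 and Rps15a) and 1 with a smaller rise (Rpl35). Rps10, Rplp2, Rpl14, Rpl35a and Rps21 have the motif too and are not shown. They had smaller rises, with log2 fold changes of 0.35, 0.32, 0.40, 0.46 and 0.49, beside a median of 0.45 over all ribosomal protein genes tested. Also shown are 1 that was not called although it has the motif (Rpl15), and 1 that was not called and has a C at the start that no pyrimidine run follows (Rps2). Genes without this start were among the largest rises too (Rps4x, Rpl31 and Rpl36a, log2 fold changes of 0.75, 0.72 and 0.72). Others without it were not called (Rpl41 and Rps26, at 0.27 and 0.24). The windows are examples, and whether the motif goes with the rise was not tested.
Rpl28 (chr7:4792955-4792984, plus strand): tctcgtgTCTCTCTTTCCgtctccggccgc
Rps18 (chr17:33955646-33955675, minus strand): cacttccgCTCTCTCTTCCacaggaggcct
Rps6 (chr4:86857348-86857377, minus strand): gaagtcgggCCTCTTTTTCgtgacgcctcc
Rpl38 (chr11:114668570-114668599, plus strand): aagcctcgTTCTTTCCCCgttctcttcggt
Rps15a (chr7:118116128-118116157, minus strand): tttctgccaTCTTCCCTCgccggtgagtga
Rpl35 (chr2:39005112-39005141, minus strand): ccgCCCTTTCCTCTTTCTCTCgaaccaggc
Rpl15 (chr14:18270967-18270996, minus strand): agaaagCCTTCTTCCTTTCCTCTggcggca
Rps2 (chr17:24720053-24720082, plus strand): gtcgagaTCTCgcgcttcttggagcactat
The run is 11 letters long in Rpl28 and in Rps18, 18 in Rpl35 and 4 in Rps2. In the 300 bases around the start (250 before, 50 from it), searched on both strands, CCGGAAG, a core sequence of ETS factors, stood in 26 of the 63 genes (41.3%, against 9.93% of all genes). AAGATGG, a core of the YY1 motif, stood in 10 of them (15.9%, against 7.28%), and TATAAA in 7 (11.1%, against 15.7%). The last 3 letters of CCGGAAG are the first 3 of AAGATGG, so 1 stretch can hold both, and a match describes letters only.

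Evx1as KO was compared with WT to see which ribosomal protein genes differ. Evx1 was also lower in the Evx1as KO libraries (log2 fold change −3.20 ± 0.41 SE, limma adjusted p = 0.0018). This comparison therefore does not separate the loss of Evx1as from that of the Evx1 transcript. Log2(FPKM + 1) values of all 8 libraries were fitted with limma for genes that reached 1 FPKM in 2 or more libraries, and a change was called where the Benjamini-Hochberg adjusted p was below 0.05. Of the 81 ribosomal protein genes tested, 61 rose in Evx1as KO. Rpl10l was called lower, but it passed the filter only through its WT values, so that call is not read as a result. Over all 13188 genes tested, 13.0% rose and 11.4% fell. The median log2 fold change of the 81 genes was 0.45 (1.36-fold), beside 0.02 over all genes, and 77 of the 81 lay above 0. In 74 of the 81 every Evx1as KO library lay above both WT libraries, and in 3 every one lay below, beside 29.5% and 26.2% of all genes. Those 3 include Rpl10l, which is in the count only through its WT values. The other 283 genes averaging 200 FPKM or more had a median of 0.01, with 39 called higher and 47 lower. WT rests on 2 libraries: without WT replicate 1 the count of rises was 36, and without WT replicate 2 it was 35. The pluripotency markers were higher and the primitive streak markers lower in the same libraries, as given above, and their part in the result was not tested.

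**Figure D2:**
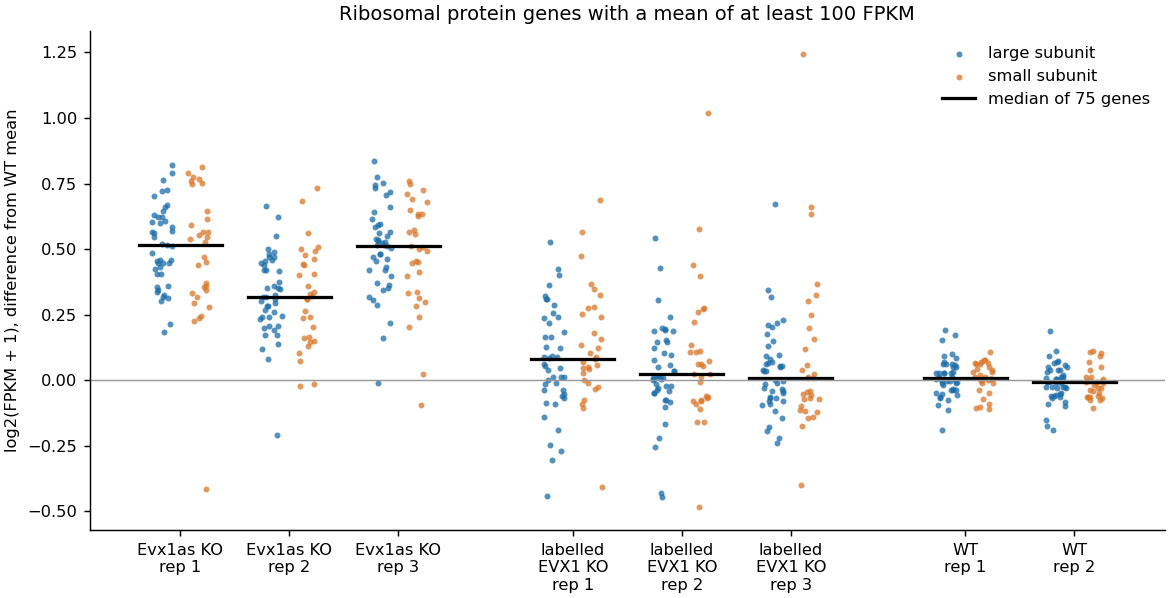
Log2(FPKM + 1) of the 75 ribosomal protein genes averaging 100 FPKM or more, as the difference from the WT mean of each gene, with 1 point per gene and library (large subunit blue, small subunit orange) and a line at the median. The medians are 0.51, 0.32 and 0.51 in the Evx1as KO libraries and 0.08, 0.02 and 0.01 in those labelled EVX1 KO.

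Among large subunit genes, 37 of 49 tested rose, with a median log2 fold change of 0.45. Rpl7, an RNA-binding protein of the large subunit, had 1867, 1742 and 1843 FPKM in Evx1as KO, against 1105 and 1093 in WT. Its log2 fold change of 0.72 ± 0.08 (SE) had the lowest limma adjusted p of the family, 0.00102. Rpl36a, near the exit site of the transfer RNA, had 1681, 1494 and 1615 FPKM in Evx1as KO and 1013 and 930.1 in WT (0.72 ± 0.09, adjusted p = 0.00149). In both genes the groups were far apart and the WT libraries close to each other. Rpl31, a protein of the peptide exit site, had 1002, 831 and 970.2 FPKM in Evx1as KO and 639 and 502 in WT (0.72 ± 0.12, adjusted p = 0.00436). Rpl3, which reaches towards the peptidyl transferase centre, had 1666, 1399.7 and 1704 FPKM in Evx1as KO and 1008 and 1013 in WT (0.65 ± 0.10, adjusted p = 0.00298). Rpl5 and Rpl11, which bind the 5S ribosomal RNA and, when free, the p53 regulator Mdm2, both rose. Rpl5 had 436, 424 and 460.4 FPKM in Evx1as KO and 310.1 and 324 in WT (0.47 ± 0.07, adjusted p = 0.00346), and Rpl11 had 2415, 1884 and 2222 FPKM in Evx1as KO and 1495 and 1469.9 in WT (0.54 ± 0.10, adjusted p = 0.00737).

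Of the 3 stalk genes, whose products recruit elongation factors, 1 passed the test. Rplp2 had 1788, 1615 and 1909.9 FPKM in Evx1as KO and 1309 and 1529 in WT (0.32 ± 0.10 SE, limma adjusted p = 0.0435). This call was lost without WT replicate 1, Evx1as KO replicate 1 or 3, or any EVX1 KO-labelled library (adjusted p of up to 0.257). Rplp0, the base of the stalk, had 2090.1, 1907 and 2018 FPKM in Evx1as KO and 1878 and 1733 in WT (0.15 ± 0.08, adjusted p = 0.191), and Rplp1 had 3018, 3061 and 3435 FPKM in Evx1as KO and 2530.3 and 2786 in WT (0.25 ± 0.10, adjusted p = 0.0925). In all 3 genes the Evx1as KO libraries lay above both WT libraries. The next largest called rises of the large subunit were those of Rpl38 and Rpl28. Rpl38, mutated in the Tail-short mouse, had 472, 404 and 532 FPKM in Evx1as KO and 261 and 339.6 in WT (0.64 ± 0.15, adjusted p = 0.0145), and Rpl28 had 3165, 2671 and 3119 FPKM in Evx1as KO and 1954 and 1873 in WT (0.64 ± 0.11, adjusted p = 0.00439). The smallest called rises of the family were those of Rps9 and Rpl7a, at 0.27 ± 0.08 and 0.28 ± 0.08 (adjusted p = 0.0362 and 0.0351), and both calls were lost when either WT library was left out.

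Among small subunit genes, 24 of 32 tested rose and none was called lower, and the median was again 0.45 on the log2 scale. At an unadjusted limma p under 0.05, 29 of these 32 were higher and 0 lower, beside 2688 and 2391 of all 13188 genes. Rps4x, the X-linked form of an RNA-binding protein of the small subunit body, had 912, 835 and 872 FPKM in Evx1as KO, against 481 and 559.8 in WT (0.75 ± 0.09 SE, limma adjusted p = 0.00133). Rps3a1 had 1374, 1184 and 1314 FPKM in Evx1as KO and 825 and 781 in WT (0.68 ± 0.10, adjusted p = 0.00264). Both genes were higher in all 3 knockout libraries by a similar amount. Rps14, a protein of the subunit platform, had 1485, 1221 and 1484 FPKM in Evx1as KO and 945 and 815 in WT (0.66 ± 0.11, adjusted p = 0.00475). Rps18, a protein of the subunit head, had 2308, 1946 and 2273 FPKM in Evx1as KO and 1414 and 1336 in WT (0.66 ± 0.10, adjusted p = 0.00278). Rps6, the substrate of the S6 kinases, had 1238, 1130.5 and 1287 FPKM in Evx1as KO and 782 and 862 in WT (0.57 ± 0.08, adjusted p = 0.00295). In these 3 genes, too, no knockout library reached down to a WT library. The gene with the largest called rise, Rps15a, was listed at a low level for a ribosomal protein gene, with 31.9, 24.7 and 27.0 FPKM in Evx1as KO and 12.4 and 15.5 in WT (0.95 ± 0.15, adjusted p = 0.00365).

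The sizes of the changes varied between genes. Over the 75 genes averaging 100 FPKM or more, log2 fold changes ran from −0.18 to 0.75, and the middle 50% lay between 0.32 and 0.54. Their SD between genes, 0.17, was larger than the median standard error of 0.092 per gene. The 19 genes tested and not called included 8 of the small and 11 of the large subunit. Rps2, Rpl41, Rps26 and Rplp1, which are among the 5 genes with the highest level, were all not called, at 0.26, 0.27, 0.24 and 0.25 (adjusted p = 0.0584, 0.0923, 0.0595 and 0.0925). The remaining one of those 5, Rps12, rose, with 4317, 4139 and 4381 FPKM in Evx1as KO and 3003 and 2881 in WT (0.54, adjusted p = 0.00341). Of the 61 rises, 26 were called again when each of the 8 libraries was left out in turn, among them Rpl3, Rpl7, Rpl31, Rpl36a, Rps3a1, Rps4x, Rps14 and Rps18. Rps27l was lost without WT replicate 1 (adjusted p = 0.0776), as was Rpl38 (adjusted p = 0.111).

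**Figure D3:**
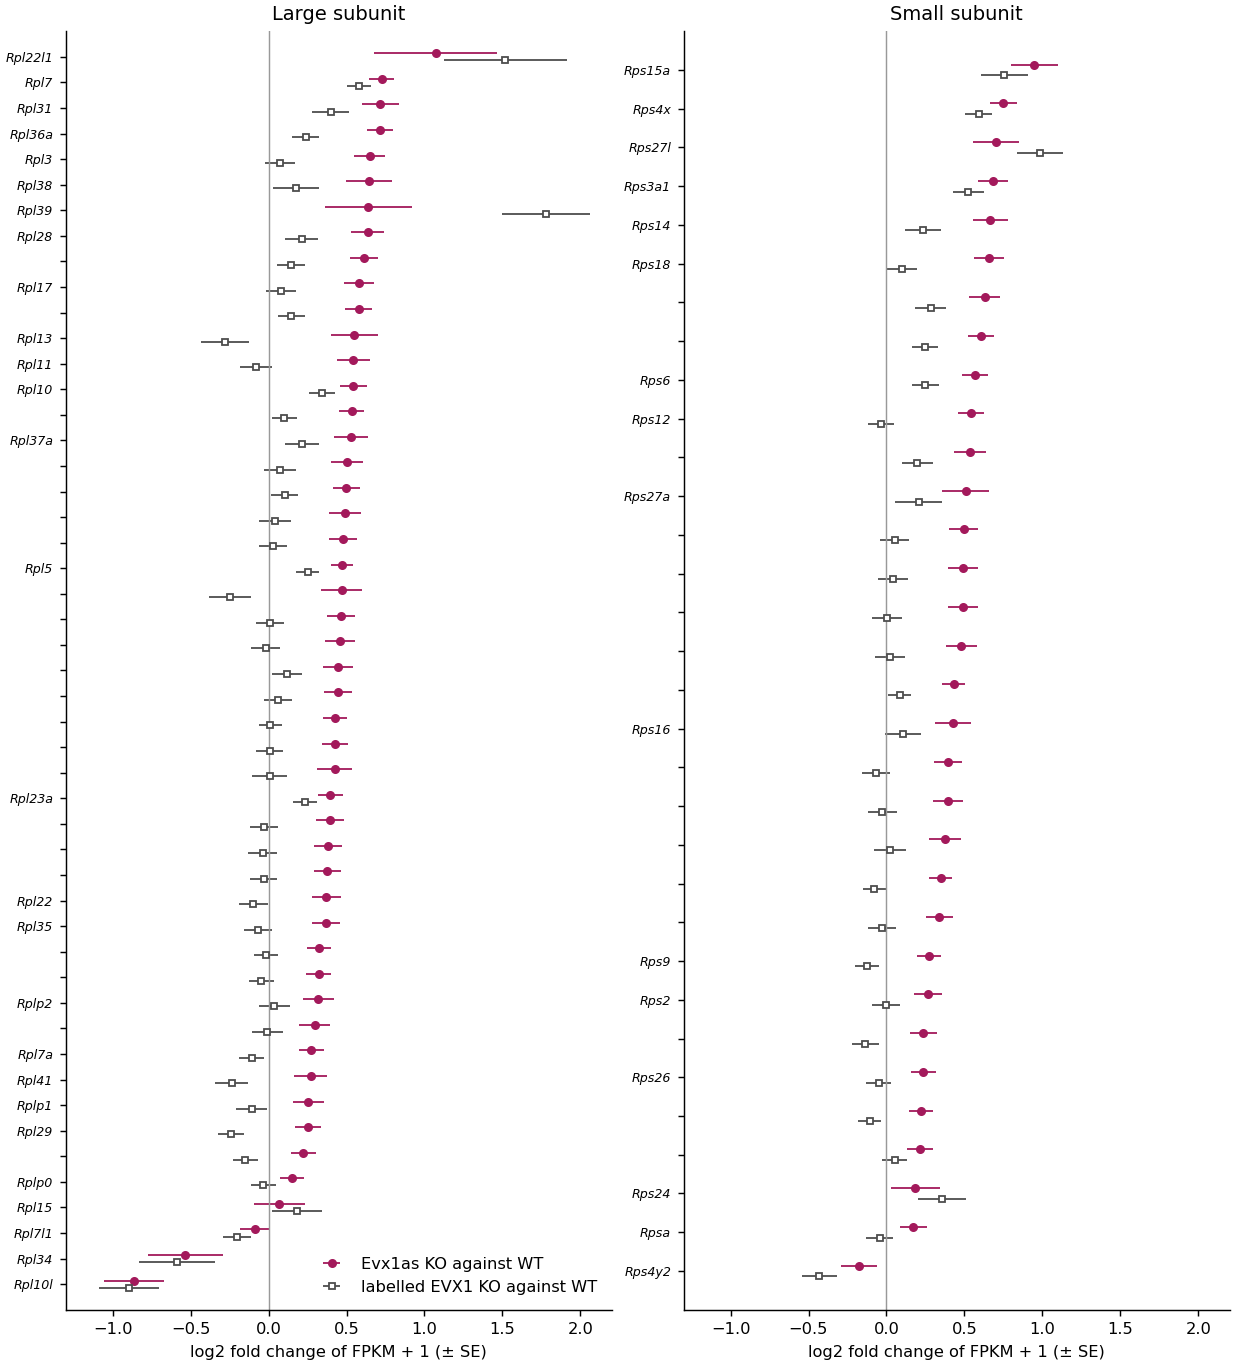
Log2 fold change of FPKM + 1 with its standard error for each of the 81 genes tested, large subunit on the left (49) and small subunit on the right (32), in Evx1as KO against WT (filled circles) and in the EVX1 KO-labelled libraries against WT (open squares). The middle 50% of the filled circles lie between 0.32 and 0.55 and of the open squares between −0.05 and 0.20. Both sets of points share the WT libraries, and names are given for the genes described in the text.

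In the EVX1 KO-labelled libraries, labelled as a knockout of the protein-coding gene, few ribosomal protein genes differed from WT. Rpl39, Rps27l, Rps4x, Rpl7 and Rps3a1 were called higher, 5 of 81, and 0 were called lower, beside 0.690% higher and 0.554% lower over all genes. In 27 genes all 3 libraries lay above both WT libraries and in 16 below, beside 21.2% and 17.9% of all genes. Those 16 include Rpl10l, which passed the filter only through its WT values. The median log2 fold change was 0.03, beside 0.02 over all genes. At an unadjusted p under 0.05, 16 genes were higher and 4 lower in limma, the only tool used. Over all 13188 genes tested, 1492 were higher and 1308 lower at that threshold. Rpl39, a small protein lining the peptide exit tunnel, had 64.3, 58.3 and 130.4 FPKM in the EVX1 KO-labelled libraries, against 22.8 and 21.7 in WT (1.78 ± 0.28 SE, adjusted p = 0.0302). Replicate 3 stood well above the other libraries, but all 3 lay above WT. Rps27l, a paralogue of Rps27 known in human cells as a p53 target, had 189.7, 239 and 279.5 FPKM in the EVX1 KO-labelled libraries and 110.1 and 125 in WT (0.98 ± 0.15, adjusted p = 0.0266). Rps4x had 767, 775 and 805 FPKM there and 481 and 559.8 in WT (0.59 ± 0.09, adjusted p = 0.0266). Rpl7 had 1585, 1601 and 1749.8 FPKM there and 1105 and 1093 in WT (0.58 ± 0.08, adjusted p = 0.0214). Rps3a1 had 1116, 1089.5 and 1269 FPKM there and 825 and 781 in WT (0.52 ± 0.10, adjusted p = 0.0432).

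These 5 calls were lost under several settings. The count was 0 without the filter on low values, with only the 2 groups compared in the fit, and with the replicate number as a block. None of the 5 was called in every fit that left out 1 library, and their adjusted p reached 0.162 for Rpl7 and 0.199 for Rps3a1. The count was 0 without EVX1 KO replicate 2 and without WT replicate 1. It was 1 without WT replicate 2 or Evx1as KO replicate 3, 2 without EVX1 KO replicate 1, and 3 without Evx1as KO replicate 1. Of the 5, all but Rpl39 were also called higher in Evx1as KO against WT, and both comparisons use the same WT libraries. Rpl39 in Evx1as KO had 35.2, 35.9 and 34.6 FPKM, above both WT libraries, and was not called there (0.64 ± 0.28, adjusted p = 0.127).

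The knockouts were then compared directly, with WT entering only through the shared estimate of the spread. Of the 81 genes, 60 were lower in the EVX1 KO-labelled libraries than in Evx1as KO and 1, Rpl39, was higher, beside 11.3% lower and 10.7% higher over all genes. The median log2 fold change was −0.37, beside 0.00 over all genes. In 68 genes every library labelled EVX1 KO lay below every Evx1as KO library, and in 1 above, beside 20.8% and 20.1% of all genes. By subunit, 38 of 49 large subunit genes and 22 of 32 small subunit genes were lower, with medians of −0.41 and −0.35. Of the 60 genes, 51 were also called higher in Evx1as KO against WT, and the Evx1as KO libraries enter both comparisons. The 10 genes called higher against WT and not lower here were Rpl7, Rpl10, Rpl23a, Rpl31, Rps3a1, Rps4x, Rps15a, Rps16, Rps27a and Rps27l. Without Evx1as KO replicate 3 the count of lower genes was 39, and without Evx1as KO replicate 2 it was 63.

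Rpl11 had 1395, 1382 and 1434 FPKM in the EVX1 KO-labelled libraries, against 2415, 1884 and 2222 in Evx1as KO (−0.62 ± 0.09 SE, limma adjusted p = 0.00297). Rps12 had 3029.7, 2929.9 and 2658 FPKM in the EVX1 KO-labelled libraries and 4317, 4139 and 4381 in Evx1as KO (−0.58 ± 0.07, adjusted p = 0.00149). Rpl3 had 1103, 1035 and 1060.2 FPKM in the EVX1 KO-labelled libraries and 1666, 1399.7 and 1704 in Evx1as KO (−0.57 ± 0.09, adjusted p = 0.00305), and Rps18 had 1558, 1433 and 1432 FPKM in the EVX1 KO-labelled libraries and 2308, 1946 and 2273 in Evx1as KO (−0.56 ± 0.09, adjusted p = 0.00326). Rpl41, Rpl17 and Rpl29 were at −0.51, −0.50 and −0.49 (adjusted p = 0.00725, 0.00562 and 0.00324). In each of these 7 genes the groups did not overlap, and each was called again whichever library was left out. Rplp1, not called against WT, had 2562, 2587 and 2251 FPKM in the EVX1 KO-labelled libraries and 3018, 3061 and 3435 in Evx1as KO (−0.36 ± 0.09, adjusted p = 0.0206), a call lost without Evx1as KO replicate 3 or EVX1 KO replicate 3. Rpl39 went the other way, with 64.3, 58.3 and 130.4 FPKM in the EVX1 KO-labelled libraries and 35.2, 35.9 and 34.6 in Evx1as KO (1.14 ± 0.25, adjusted p = 0.0140), a call that leaving out Evx1as KO replicate 3 ended (adjusted p = 0.0503). Rpl7, Rps4x, Rps3a1 and Rps27l did not pass the test between the knockouts, at −0.14, −0.16, −0.16 and 0.28 (adjusted p = 0.169, 0.178, 0.225 and 0.155). The 9 genes called in none of the 3 comparisons included Rpl15, Rpl22l1, Rpl34, Rpl7l1, Rplp0, Rps24, Rps4y2 and Rpsa.

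The balance between the subunits was set beside the common change. The summed FPKM of large subunit genes was 1.29, 1.26 and 1.27 times that of small subunit genes in Evx1as KO, 1.20, 1.22 and 1.25 times in the EVX1 KO-labelled libraries and 1.26 and 1.25 times in WT. The lowest Evx1as KO value and the higher WT value were both 1.26, and 2 of the 3 EVX1 KO-labelled values lay below both WT values. Over the 75 genes averaging 100 FPKM or more, the mean log2(FPKM + 1) of large minus small subunit genes was −0.10, −0.13 and −0.10 in Evx1as KO, −0.20, −0.19 and −0.18 in the EVX1 KO-labelled libraries and −0.13 and −0.13 in WT. All 3 EVX1 KO-labelled values lay below both WT values, and the Evx1as KO values lay at or above them. Over all 84 genes the difference was −0.67, −0.71 and −0.71 in Evx1as KO, −0.74, −0.72 and −0.67 in the EVX1 KO-labelled libraries and −0.64 and −0.66 in WT. Of the 9 genes under 100 FPKM, 7 belong to the large subunit. These values are a description per library, with no test.

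Evx1as KO replicate 2 was the lowest of the 3 Evx1as KO libraries in 72 of the 75 genes averaging 100 FPKM or more, while the highest was replicate 1 in 39 and replicate 3 in 35. In the EVX1 KO-labelled libraries the lowest was replicate 1 in 10 genes, replicate 2 in 25 and replicate 3 in 40, and in WT it was replicate 1 in 30 and replicate 2 in 45. The median coefficient of variation of these genes was 7.37% in Evx1as KO, 3.87% in the EVX1 KO-labelled libraries and 4.01% in WT. Without Evx1as KO replicate 2 the median log2 fold change against WT was 0.52 and 67 genes were called higher. Among all 84 genes the largest SDs within a group on the log2(FPKM + 1) scale were those of Rpl22l1 and Rpl39 in the EVX1 KO-labelled libraries, at 0.68 and 0.63. Next came Rpl34, Rpl15 and Rps24 in Evx1as KO, at 0.38, 0.33 and 0.31.

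On chromosomes 8 and 14, a few genes departed from the family along with the other genes of their chromosome. Each gene's log2(FPKM + 1) was set against its mean over the 8 libraries, and for ribosomal protein genes the median of the 75 genes was then subtracted in each library. On chromosome 14, Rpl15, a large subunit protein mutated in some human Diamond-Blackfan anaemia, lay at 0.02, −0.44 and −0.41 in Evx1as KO, 0.26, 0.24 and 0.17 in the EVX1 KO-labelled libraries and 0.12 and 0.04 in WT. Rps24, another gene of that anaemia, lay at 0.03, −0.35 and −0.48 in Evx1as KO, 0.24, 0.34 and 0.29 in the EVX1 KO-labelled libraries and 0.03 and −0.09 in WT. The median of 321 other genes of that chromosome, each averaging 5 FPKM or more, lay at 0.13, −0.36 and −0.34 in Evx1as KO, 0.18, 0.18 and 0.16 in the EVX1 KO-labelled libraries and 0.06 and −0.02 in WT. Both genes and the chromosome were thus low in Evx1as KO replicates 2 and 3 and not in replicate 1.

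On the FPKM scale Rpl15 had 1089.7, 699.7 and 801 FPKM in Evx1as KO, 966, 928 and 865 in the EVX1 KO-labelled libraries and 836 and 781 in WT. Rps24 had 1946, 1318 and 1355 FPKM in Evx1as KO, 1695, 1755 and 1668 in the EVX1 KO-labelled libraries and 1396 and 1271 in WT. Neither was called in Evx1as KO against WT, at 0.07 ± 0.16 and 0.19 ± 0.15 (SE, limma adjusted p = 0.783 and 0.410).

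On chromosome 8, Rpl13 lay at 0.21, 0.18 and 0.21 in Evx1as KO, −0.45, −0.41 and 0.12 in the EVX1 KO-labelled libraries and 0.12 and 0.02 in WT. The median of 503 other genes of that chromosome lay at 0.16, 0.15 and 0.15 in Evx1as KO, −0.38, −0.30 and 0.09 in the EVX1 KO-labelled libraries and 0.11 and 0.01 in WT. EVX1 KO replicates 1 and 2 were the low ones for the gene and for the chromosome. Rpl13 had the most negative change of the family in the direct comparison of the knockouts, at −0.83 ± 0.14 (SE, limma adjusted p = 0.00427). On the FPKM scale Rpl13 had 2683, 2328 and 2669.9 FPKM in Evx1as KO, 1282, 1281 and 1811 in the EVX1 KO-labelled libraries and 1822 and 1669.8 in WT.

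On chromosome 1, medians of 467 other genes lay at −0.10, −0.09 and −0.09 in Evx1as KO, 0.14, 0.14 and 0.12 in the EVX1 KO-labelled libraries and 0.03 and −0.10 in WT. Rpl7 lay at −0.04, 0.04 and −0.05 in Evx1as KO, 0.14, 0.19 and 0.35 in the EVX1 KO-labelled libraries and −0.32 and −0.31 in WT. It was lowest in both WT libraries, below the chromosome medians of 0.03 and −0.10 there. Rpl31 lay at 0.09, 0.00 and 0.05 in Evx1as KO, 0.11, 0.15 and 0.10 in the EVX1 KO-labelled libraries and −0.08 and −0.41 in WT. Rpl37a lay at −0.03, 0.05 and −0.02 in Evx1as KO, 0.06, 0.06 and 0.10 in the EVX1 KO-labelled libraries and 0.07 and −0.29 in WT, and like Rpl31 it was lowest in WT replicate 2. Leaving out the 7 genes of these 3 chromosomes, 56 of 74 genes rose in Evx1as KO against WT with a median of 0.44, and 57 of 74 were lower in the EVX1 KO-labelled libraries than in Evx1as KO with a median of −0.38. What moves these chromosomes was not tested.

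**Figure D4:**
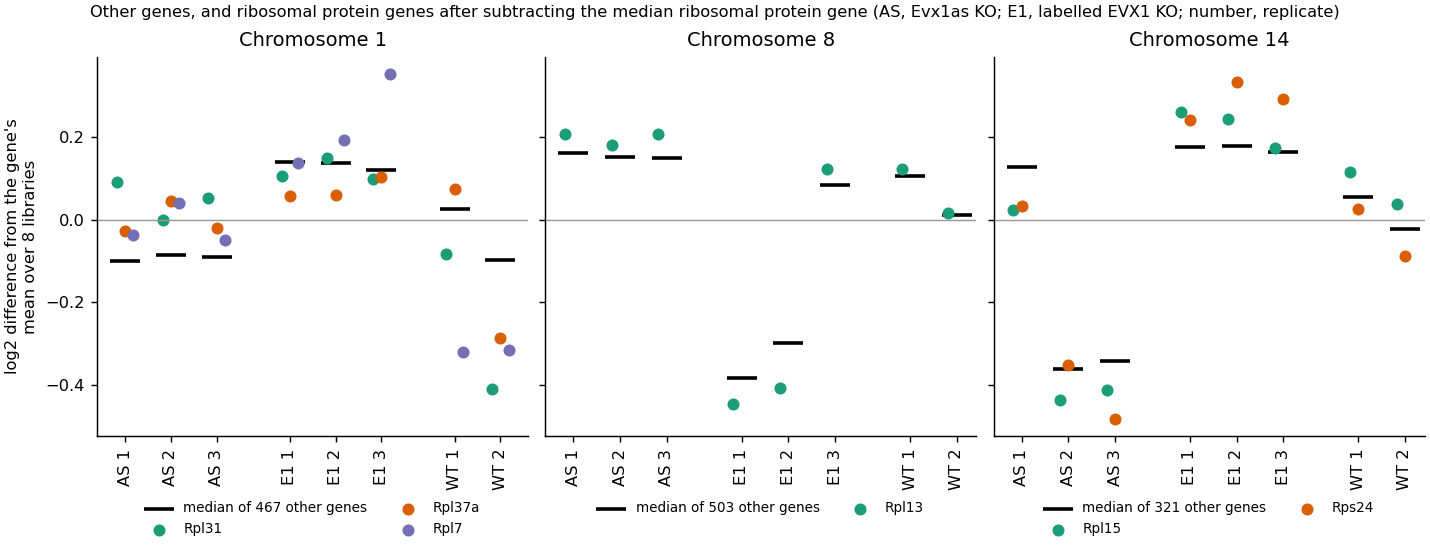
Log2 difference from the gene's mean over 8 libraries for the median of other genes (black bars) and for the ribosomal protein genes described in the text after subtracting the median ribosomal protein gene (coloured points), on chromosomes 1, 8 and 14, by library (AS, Evx1as KO, and E1, labelled EVX1 KO). On chromosome 8 the point and bar are low in EVX1 KO replicates 1 and 2, and on chromosome 14 in Evx1as KO replicates 2 and 3.

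Paralogues, copies that can replace a ribosomal protein in some tissues, had 1 called rise in Evx1as KO, that of Rps27l. Rpl22l1, the paralogue of Rpl22, had 10.2, 4.78 and 4.52 FPKM in Evx1as KO, 6.49, 6.24 and 15.6 in the EVX1 KO-labelled libraries and 2.60 and 2.16 in WT. All 6 knockout libraries lay above WT, but neither comparison passed the test, at 1.07 ± 0.40 and 1.52 ± 0.40 (SE, limma adjusted p = 0.0786 and 0.0889). Rpl22 itself had 259, 254 and 299 FPKM in Evx1as KO, 199, 204 and 182 in the EVX1 KO-labelled libraries and 208 and 209.9 in WT. It rose in Evx1as KO (0.37 ± 0.09, adjusted p = 0.0216), a call lost without Evx1as KO replicate 3 or either WT library. Rps27l had 199, 196 and 182 FPKM in Evx1as KO, against the WT values above, and rose by 0.70 ± 0.15 (adjusted p = 0.0103).

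Rpl7l1, a relative of Rpl7, had 52.9, 57.1 and 51.9 FPKM in Evx1as KO and 58.1 and 56.8 in WT and was not called (−0.09, limma adjusted p = 0.504), while Rpl7 rose. Rps4y2, which RefSeq names Rps4l and which is a relative of Rps4x, had 198, 259.8 and 247 FPKM in Evx1as KO, 198, 188 and 199.7 in the EVX1 KO-labelled libraries and 261 and 266 in WT. It was below both WT libraries in all 6 knockout libraries and was not called against WT in either (adjusted p = 0.284 and 0.0909). Rpl10l, the testis paralogue of Rpl10, had 0.178, 0.168 and 0.158 FPKM in Evx1as KO and 1.23 and 1.03 in WT, and passed the filter only through its WT values. Its call as lower (−0.86 ± 0.19, adjusted p = 0.0134) was lost when either WT library was left out. Its parent gene Rpl10 had 1827, 1619 and 1756 FPKM in Evx1as KO and 1136 and 1241 in WT (0.54, adjusted p = 0.00346). Rpl39l had at most 0.693 FPKM in any library, and Rpl3l, a muscle paralogue of Rpl3, was listed at 0 in all but WT replicate 1. Rpl3l, Rpl39l and Rps27 are the 3 genes below the filter.

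Ribosomal protein genes outside the name rule had changes of the same sign. Of 4 measured, Fau, which encodes the small subunit protein eS30 fused to a ubiquitin-like domain, and Gnb2l1, the scaffold also called Rack1, rose in Evx1as KO, at 0.35 ± 0.09 and 0.38 ± 0.09 (SE, limma adjusted p = 0.0228 and 0.0181). Rpl36al, a relative of Rpl36a, was not called, at 0.23 ± 0.10 (adjusted p = 0.115). The call of Fau was lost without Evx1as KO replicate 1 or 3 or WT replicate 2, and that of Gnb2l1 without any of these or WT replicate 1. All 4 were lower in the EVX1 KO-labelled libraries than in Evx1as KO. Fau had 1021, 933 and 890.4 FPKM in the EVX1 KO-labelled libraries and 1211, 1149 and 1211 in Evx1as KO.

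Among 18 translation factors and other genes known for TOP messages, 9 rose in Evx1as KO and none was called lower, beside 13.0% and 11.4% of all genes, with a median of 0.35 on the log2 scale. At an unadjusted limma p under 0.05, 11 were higher and 0 lower, beside 2688 and 2391 of all 13188 genes. Eef1a1, which delivers aminoacyl-tRNA, had 7479, 6224 and 7676 FPKM in Evx1as KO and 4490.3 and 4333 in WT (0.69, limma adjusted p = 0.00397). Eef1b2, its exchange factor, had 578, 505 and 535 FPKM in Evx1as KO and 367 and 342 in WT (0.60, adjusted p = 0.00233). Eif4b, an initiation factor, and Naca, a chaperone of nascent chains, rose by 0.61 and 0.58 (adjusted p = 0.00369 and 0.00211). Pabpc1, the poly(A)-binding protein, was at 0.06 and was not called. In the EVX1 KO-labelled libraries against WT, 1 of the 18 was called, Eif3e, with a log2 fold change of 1.10 ± 0.17 at 11.5, 12.9 and 17.2 FPKM, against 5.52 and 6.25 in WT (limma adjusted p = 0.0302), lost without EVX1 KO replicate 2, Evx1as KO replicate 3 or either WT library. Between the knockouts 8 were lower and 1, Eif3e, was higher in the EVX1 KO-labelled libraries, beside 11.3% and 10.7% of all genes.

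Genes that build ribosomes were called in both directions, beside 13.0% of all genes higher and 11.4% lower. Of 31 nucleolar assembly genes, 1 rose and 2 fell in Evx1as KO, with a median of −0.02. Nop10, of the pseudouridine-guiding particles, rose by 0.53 (limma adjusted p = 0.00532), and Tsr1 and Rrp9, both factors of small subunit assembly, fell by 0.42 and 0.35 (adjusted p = 0.0465 and 0.0464), calls that were lost when either WT library was left out. Of 14 genes of RNA polymerase I and its factors, which transcribe ribosomal RNA, 0 rose and 2 fell, Taf1a at −0.70 and Cd3eap at −0.58 (limma adjusted p = 0.00549 and 0.0336). At an unadjusted p under 0.05 also 0 were higher and 2 lower, beside 2688 and 2391 of all 13188 genes. Cd3eap was lost when either WT library was left out. Of 73 mitochondrial ribosomal protein genes, 9 rose and 6 fell, close to the shares of all genes, with a median of 0.01, and Mrpl23 was the furthest from 0 at 0.81 (adjusted p = 0.00253). In the EVX1 KO-labelled libraries against WT, 0 of the 31 nucleolar genes were called, beside 0.690% of all genes higher and 0.554% lower. At an unadjusted limma p under 0.05, 1 of the 31 was higher and 4 lower, beside 1492 and 1308 of all 13188 genes. Taf1b was called higher, at 0.65, and Mrpl34 lower, at −0.61 (adjusted p = 0.0460 and 0.0463), and both were lost when either WT library was left out. Between the knockouts, 11.3% of all genes were lower and 10.7% higher in the EVX1 KO-labelled libraries. Of the 73 mitochondrial ribosomal protein genes, 13 were lower and 1 higher there, with a median of −0.12. The nucleolar list had 2 lower, Nop10 and Nhp2 of the same particles, at −0.52 and −0.33. The polymerase I list had 3 higher, Taf1a, Cd3eap and Taf1b, at 0.63, 0.54 and 0.44.

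**Figure D5:**
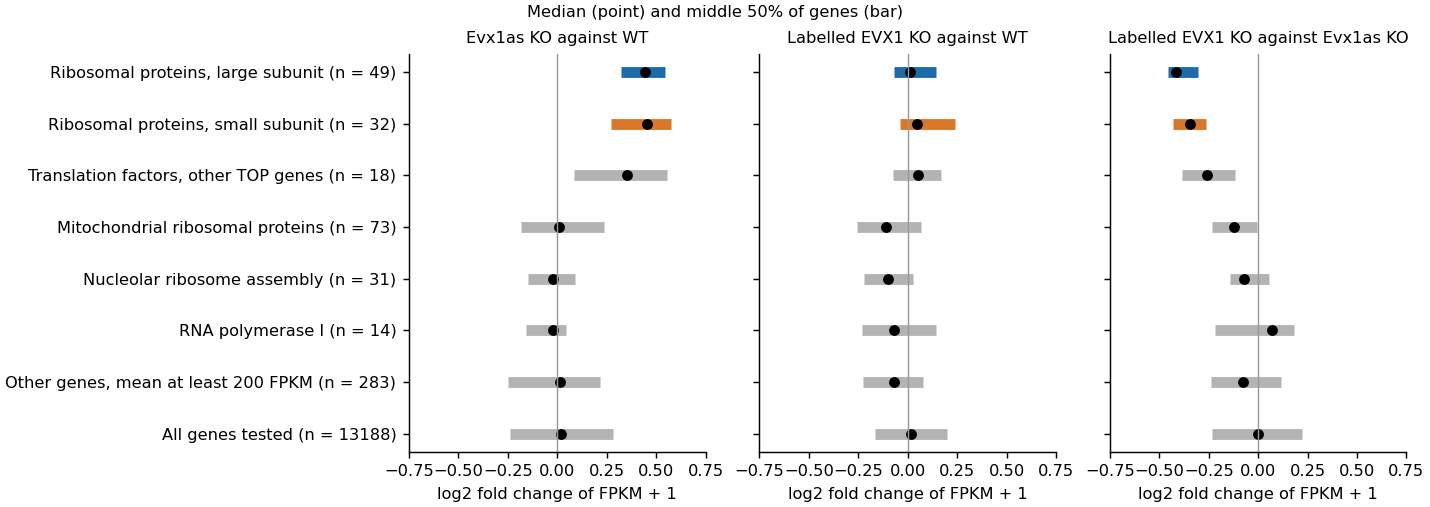
Median (point) and middle 50% (bar) of the log2 fold changes of FPKM + 1 in each set of genes drawn, for the 3 comparisons, with the number of genes tested beside each list. Both ribosomal subunits and the translation factors lie to the right in Evx1as KO against WT and to the left in the EVX1 KO-labelled libraries against Evx1as KO, and the other lists have medians between −0.12 and 0.07.

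Of 12 regulators of ribosomal protein synthesis, 2 rose and 2 fell in Evx1as KO, which is close to the 13.0% and 11.4% of all genes and is no result about the list. Myc, a transcription factor known to raise ribosome production, had 15.3, 24.2 and 11.6 FPKM in Evx1as KO, 29.1, 37.2 and 41.8 in the EVX1 KO-labelled libraries and 31.4 and 36.0 in WT. It fell in Evx1as KO (−0.998 ± 0.260 SE, limma adjusted p = 0.0240), and was higher in the EVX1 KO-labelled libraries than in Evx1as KO (1.08 ± 0.23, adjusted p = 0.0126). Whether Myc has a part in the ribosomal protein levels was not tested. Max, the partner of Myc, fell by 0.42 (adjusted p = 0.0258). Larp1, the TOP-binding protein, and Deptor, an inhibitor of mTOR, rose by 0.33 and 0.88 (adjusted p = 0.0282 and 0.0261). Each of these 4 calls against WT was lost when WT replicate 1, Evx1as KO replicate 1 or Evx1as KO replicate 3 was left out, with adjusted p of up to 0.175 over the fits that left out 1 library. Mtor itself was at 0.27 and was not called (adjusted p = 0.0749). None of the 12 was called in the EVX1 KO-labelled libraries against WT in limma. At an unadjusted p under 0.05, 3 of them were higher and 1 lower, beside 1492 and 1308 of all 13188 genes.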

How the data were processed

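RNA-seq libraries of CJ9 cells (3 Evx1as KO, 3 labelled EVX1 KO and 2 WT) were used as 1 table of FPKM that the authors deposited. The library kit was TruSeq Stranded, for mRNA, per the labels' protocols. Per the submitters' processing notes, CASAVA and TopHat2 2.0.11 were among the tools and both mm10 and mm9 among the builds, without saying which step used them. Which program gave the FPKM, with which annotation and strand setting, is, in the sources used here, not given. Of 45772 lines, 3527 were blank. Values of 2660 symbols stood on several lines, with identical values, and were used once. Depth is unknown, so no counting interval is given.

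Members were the 84 symbols described above. The members and all gene lists were chosen with earlier results of these data known. Log2(FPKM + 1) of the 13188 genes that reached 1 FPKM in 2 or more of the 8 libraries entered 1 limma model (limma 3.58.1, R 4.3.3, intensity trend, two-sided, 1 mean per group), with Benjamini-Hochberg adjustment over all of them. The pseudocount understates changes of low genes. Tables and figures were made with Python 3.11.15, pandas 2.3.3, numpy 2.4.6 and matplotlib 3.10.9. The fit was run on simulated data with independent noise for each gene. That run holds no shift shared by many genes of a library, so it does not bear on counts over the family. Of 83 members matched to RefSeq by symbol, 3 overlapped their GRCm38 position, so coordinates of the table are not printed.

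Named genes were the 10 largest called changes each way in a comparison, the 5 highest and 5 lowest, paralogues with their parents, stalk genes, members on chromosomes 1, 8 and 14, the 5 most variable, and up to 4 per list. Some genes covered by this rule are not reported here. Others were chosen after their values were seen. Alternatives were pseudocounts of 0.1 and 5, no filter and a filter of 5 FPKM, median-ratio scaling, rescaling to a common FPKM sum, fits of the 2 groups compared, a replicate block, array weights and leaving out each library. Counts over members with a mean of at least 100 FPKM, and the large minus small difference over members with at least 1 FPKM in 2 libraries, were added after seeing the data.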

Additional observations from a re-analysis of the deposited data

How the results depend on the processing

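No median of the ribosomal protein genes changed sign, and none of their calls turned to the other direction. The median over all genes did change sign on rescaling, to −0.06 in Evx1as KO against WT. In Evx1as KO against WT the single lower call was absent with a pseudocount of 0.1, a filter of 5 FPKM or only members of at least 100 FPKM (0 each). The higher count, 61 in the main fit, was 44 without a filter and 54 after rescaling each library to a common FPKM sum. Rescaling gave a median of 0.36. Leaving out each library gave 35 to 67 higher, 0 to 1 lower and medians of 0.41 to 0.52. In EVX1 KO against WT the higher count was 0 without a filter, 0 with only the 2 groups compared and 8 with array weights. The lower count was 1 with a pseudocount of 5 and 2 with array weights. Leaving out each library gave 0 to 6 higher and 0 to 1 lower. In EVX1 KO against Evx1as KO the higher count was 0 without a filter, 2 with array weights and 0 over members of at least 100 FPKM. The lower count, 60 in the main fit, was 40 without a filter and 47 after rescaling. Rescaling gave a median of −0.26, and leaving out each library gave 0 to 2 higher and 39 to 63 lower. The cause of these differences was not tested.

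The large minus small mean log2 FPKM (Evx1as KO, EVX1 KO and WT) was −0.70, −0.71 and −0.65. It was −0.79, −0.82 and −0.69 with a pseudocount of 0.1, and −0.61, −0.63 and −0.58 with 5. Over members of at least 1 FPKM it was −0.63, −0.64 and −0.59, with the 5 FPKM filter −0.43, −0.45 and −0.42, and over members of at least 100 FPKM −0.11, −0.19 and −0.13, where Evx1as KO lay above WT and not below it. Without chromosomes 1, 8 and 14 it was −0.84, −0.83 and −0.76, with Evx1as KO below EVX1 KO and not above it, and rescaled it was −0.74 in EVX1 KO.

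Rescaling gave 1342 higher and 1960 lower over all genes in Evx1as KO against WT, beside 1721 and 1509 as deposited, and 2156 and 1014 between the knockouts, beside 1412 and 1491, where the median of all genes moved to 0.10. Without a filter 23869 genes were tested, and the counts over all genes were 12 higher and 16 lower in EVX1 KO against WT. Deviations of same-numbered libraries correlated at −0.099 to 0.076, and those of differently numbered libraries at −0.159 to 0.161. The deviations were taken from group means of few libraries, so these values cannot exclude pairing by replicate number. With the replicate number as a block, 55 members were higher and 1 lower, 0 were called, and 54 were lower and 1 higher in the 3 comparisons. Low FPKM values rest on few reads.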
